A study of Homo sapiens with 12 samples.

Results

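IRF8 and 8 further transcription factors that set the choice between granulocyte and monocyte fate were followed in HL-60 cells given decitabine. The genes were chosen by symbol, and all 9 (IRF8, SPI1, CEBPA, CEBPB, CEBPD, CEBPE, GFI1, KLF4 and RUNX1) were found among the 60240 genes of the deposited table and passed the filter on low values. HL-60 is a human leukaemia line whose cells resemble promyelocytes, the stage of the neutrophil lineage at which granules begin to form. Decitabine is an analogue of deoxycytidine that enters DNA during replication and there inactivates DNA methyltransferases. IRF8 RNA fell with decitabine at 72 h and at 120 h, and CEBPE RNA rose at 120 h, whereas the other 7 genes gave no call in the model fitted to all libraries.

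The groups were decitabine at 6 h, DMSO at 6 h, decitabine at 72 h, DMSO at 72 h, decitabine at 120 h and DMSO at 120 h, each of wild-type HL-60 seeded at 100000 cells per mL. Decitabine was given at 100 nM at 0, 24 and 48 h, so that the 6 h cells had received a single addition, and the vehicle DMSO was the control. Each group has 2 samples in the labels, which were duplicate wells of a single line, and nothing says that they were separate cultures, so the p-values measure only the spread between wells, which may be technical. Values were available for 11 of the 12 libraries. DMSO at 72 h is represented by 1 library, labelled replicate 1 under the reading of the column heading given with the processing, and it has no SD.

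The estimated depth was 14427331 to 32908419 counts per library. The promyelocyte markers MPO, ELANE, PRTN3, AZU1, CTSG and CD33 were all present, MPO at 86061 to 178349 normalised reads. The erythroid markers HBB, HBA1, HBA2 and ALAS2 were at 0 in every library. The 2 decitabine libraries of 72 h stood apart from each other: the median absolute log2 difference over genes was 0.59 between them, against 0.19 to 0.26 for the other pairs. The members' fold changes at 72 h are therefore also given with each of these libraries left out. Each such fit sets 1 decitabine library against 1 DMSO library at 72 h, with all spread taken from the other groups. The pair that differs most then no longer enters the shared spread, and more of all genes were called. For the members at 72 h only the fold changes of these fits are given. In whole-culture RNA, fewer cells that express a gene and less RNA per cell cannot be told apart.

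As background, granulocytes and monocytes arise from a shared progenitor whose fate depends on the balance of a few transcription factors. PU.1, encoded by SPI1, and the C/EBP proteins act throughout the myeloid branch, IRF8 favours monocytes and dendritic cells, GFI1 represses monocyte genes in the granulocyte branch, and C/EBP-epsilon drives the late steps of granule formation. IRF8 binds DNA weakly alone and works with partners such as PU.1. Because decitabine leads to loss of methylation at CpG as cells divide, the CpG content of the regions just upstream of the members' start sites is shown before their values.

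The RefSeq promoter table (GRCh38.p14) held 11 windows for 7 of the 9 members, and the 250 bases upstream of each start were examined. Over 35116 such windows the median was 11 CpG. The IRF8 windows held 2 and 4 CpG and the CEBPE window held 2, whereas CEBPA held 41, CEBPB 25 and 38, RUNX1 32, KLF4 25, and GFI1 16 to 19. Both IRF8 windows lie within the gene, downstream of the outermost start that GENCODE lists. So do those of CEBPE, KLF4 and RUNX1 and some of GFI1. No window covered the outermost start of IRF8, so the CpG content there was not examined. A low-CpG stretch inside IRF8, 109 bases with 1 CpG, is set against 3 longer CpG-rich ones below. They come from the member that fell and from members that gave no call. The IRF8 stretch does not show the CpG content upstream of the outermost start. The window of CEBPE, also with 2 CpG, is not printed, and CEBPE RNA rose where that of IRF8 fell. No link between CpG content and the changes was tested. The bases that no GENCODE exon covers are printed 5′ to 3′ on the gene's strand, with each CpG in capitals.
IRF8 (chr16:85902580-85902688, plus strand): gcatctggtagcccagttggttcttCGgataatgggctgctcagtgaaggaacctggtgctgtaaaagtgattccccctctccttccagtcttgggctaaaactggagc
CEBPA (chr19:33302565-33302784, minus strand): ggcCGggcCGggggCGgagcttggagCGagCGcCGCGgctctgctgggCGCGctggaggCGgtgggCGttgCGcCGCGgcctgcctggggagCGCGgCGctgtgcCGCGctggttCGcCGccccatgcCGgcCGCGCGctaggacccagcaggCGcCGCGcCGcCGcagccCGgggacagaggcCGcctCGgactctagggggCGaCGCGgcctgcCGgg
KLF4 (chr9:107489770-107490019, minus strand): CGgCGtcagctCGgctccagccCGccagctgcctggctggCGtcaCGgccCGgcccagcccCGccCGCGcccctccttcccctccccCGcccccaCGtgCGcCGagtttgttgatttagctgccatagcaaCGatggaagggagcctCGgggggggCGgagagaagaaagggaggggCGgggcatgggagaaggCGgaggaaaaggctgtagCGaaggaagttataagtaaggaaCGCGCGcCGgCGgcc
RUNX1 (chr21:34888700-34888949, minus strand): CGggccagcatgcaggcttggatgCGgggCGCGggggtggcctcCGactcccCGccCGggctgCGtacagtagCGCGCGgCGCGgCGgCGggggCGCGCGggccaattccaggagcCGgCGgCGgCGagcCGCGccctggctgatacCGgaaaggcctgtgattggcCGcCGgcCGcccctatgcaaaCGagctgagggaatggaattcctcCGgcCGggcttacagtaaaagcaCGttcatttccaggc

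The same windows were searched on both strands for 4 factor motifs. The PU.1 core GAGGAA occurred in 23.6% of all windows, and among the members in windows of KLF4, CEBPE, RUNX1 and GFI1. The RUNX core TGTGGT occurred in 10.98% of all windows and in windows of IRF8 and GFI1. The C/EBP motif TTGCNNAA was found in 9.05% of all windows and in a GFI1 window, and the STAT motif TTCNNNGAA in 6.57% and in the CEBPE window. These matches describe the letters of the windows and say nothing of binding in these cells.

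IRF8 (ENSG00000140968.11; GRCh38 chromosome 16, 85898803 to 85922609, plus strand) encodes the interferon regulatory factor that monocytes and dendritic cells require. At 6 h it had 809 and 914 normalised reads in decitabine cells, against 1028 and 1044 in DMSO cells. By 72 h it had 294 and 379 in decitabine cells, against 949 in the DMSO library. By 120 h it had 176 and 191 in decitabine cells, against 1030 and 1008 in DMSO cells. The decitabine libraries lay below the DMSO libraries at each time, and the 5 DMSO libraries stayed within 949 to 1044.

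The fold change of IRF8 on the log2(value + 1) scale was -0.27 at 6 h, with a 95% interval of -0.66 to 0.13, and did not pass the threshold (adjusted p = 1, limma with Benjamini-Hochberg adjustment). At 72 h IRF8 fell by 1.50 on the log2 scale (SE 0.212, limma adjusted p = 0.0125). The fold change was -1.32 without decitabine 72 h replicate 1 and -1.69 without replicate 2. Each of these sets 1 library against 1, so no call is read from it. At 120 h its mean was 184 ± 10.8 in decitabine cells and 1019 ± 15.6 in DMSO cells (SD, n = 2 each), 5.55-fold lower with decitabine. This log2 fold change was -2.47 (SE 0.173, 95% interval -2.86 to -2.07, limma adjusted p = 0.000119). The decitabine effect at 120 h exceeded that at 6 h in the same direction, by -2.20 on the log2 scale (SE 0.244, limma adjusted p = 0.00305). The effect at 120 h minus that at 72 h was -0.96, with an interval of -1.59 to -0.34 before adjustment, and was not called (limma adjusted p = 0.615). Without decitabine 72 h replicate 1, which leaves 1 library in each 72 h group, that difference was -1.15. With the libraries of 72 h alone, which leave 1 residual degree of freedom among 3 libraries, the 72 h call was lost (limma adjusted p = 0.996).

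**Figure D1:**
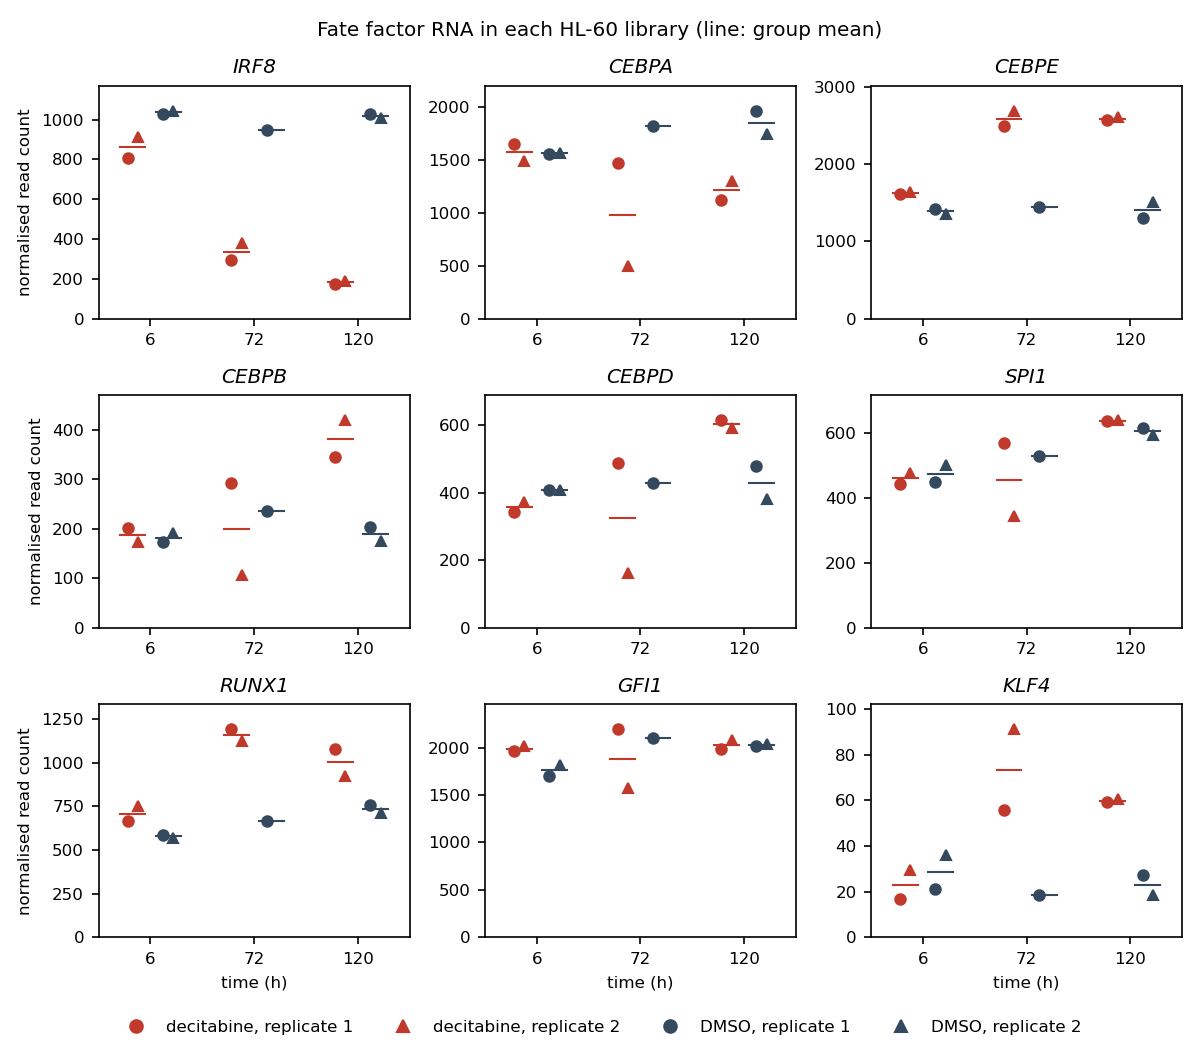
Normalised read count (vertical axis, linear from 0) of the 9 factors against time in h, with decitabine to the left of DMSO at each time; each point is a library, circles for replicate 1 and triangles for replicate 2, and the lines are group means. IRF8 sits at 176 and 191 in decitabine cells of 120 h and at 1008 and 1030 in DMSO cells, while the decitabine 72 h replicates part widely for CEBPA, CEBPB and CEBPD.

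Among the C/EBP genes, CEBPE (ENSG00000092067.5; chromosome 14, 23117304 to 23119616, minus strand) encodes the factor of terminal granulocyte maturation. At 6 h it had 1615 and 1641 normalised reads in decitabine cells, against 1420 and 1355 in DMSO cells. The 72 h libraries held 2487 and 2685 in decitabine cells, against 1442 in the DMSO library. The 120 h libraries held 2565 and 2608 in decitabine cells, against 1299 and 1505 in DMSO cells. Every decitabine library lay above the DMSO libraries of its time, and the 72 h and 120 h decitabine libraries overlapped. At 120 h CEBPE rose 1.84-fold, a log2 fold change of 0.89 (SE 0.144, 95% interval 0.56 to 1.21, limma adjusted p = 0.00501). The 120 h call did not hold when replicate 1 of decitabine at 120 h was left out (log2 0.90, limma adjusted p = 0.0503) or when replicate 2 was (log2 0.87, limma adjusted p = 0.0515). At 72 h the log2 fold change was 0.84 (interval 0.44 to 1.24) and missed the threshold (limma adjusted p = 0.0519). This 72 h value was 0.90 without decitabine 72 h replicate 1 and 0.79 without replicate 2, each 1 library against 1.

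CEBPA (ENSG00000245848.3; chromosome 19, 33299934 to 33302564, minus strand) encodes the factor that granulocyte-monocyte progenitors require. It had 1650 and 1493 normalised reads in decitabine cells of 6 h, against 1559 and 1565 in DMSO cells. At 72 h the decitabine libraries held 1469 and 494, against 1817 in the DMSO library. At 120 h CEBPA had 1120 and 1302 in decitabine cells, against 1962 and 1741 in DMSO cells. The groups overlapped at 6 h, and at 72 h and 120 h both decitabine libraries were below the DMSO libraries. The log2 fold change was -1.09 at 72 h, with an interval of -2.24 to 0.06, and was not called (limma adjusted p = 0.3001). That value rested on decitabine 72 h replicate 2: it was -1.88 without replicate 1 and -0.31 without replicate 2, each 1 library against 1. With all DMSO libraries as the control, the 72 h difference was called. The fold change was -0.61 at 120 h, with an interval of -1.55 to 0.33, and was not called (limma adjusted p = 0.368). With the libraries of 120 h alone, CEBPA was called lower at the same fold change (limma adjusted p = 0.0245), where the spread comes from these 4 libraries only. Antisense genes overlap CEBPA, CEBPB and RUNX1, and their reads could be shared, since the use of strand in counting is not stated.

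CEBPB (ENSG00000172216.6; chromosome 20, 50190734 to 50192689, plus strand) encodes a factor used in emergency granulopoiesis and in macrophages. It had 202 and 173 normalised reads in decitabine cells of 6 h, against 174 and 190 in DMSO cells. At 72 h its level was 292 and 107 in decitabine cells, against 236 in the DMSO library. At 120 h its level was 344 and 419 in decitabine cells, against 203 and 175 in DMSO cells. The groups overlapped at 6 h and 72 h and parted at 120 h, with decitabine above. The 120 h log2 fold change of 1.01 (interval 0.10 to 1.92) was not called (limma adjusted p = 0.130), and it was called with the libraries of 120 h alone (limma adjusted p = 0.0156). At 72 h the fold change was -0.41 (limma adjusted p = 0.688). With 1 library against 1 it was -1.13 without decitabine 72 h replicate 1 but 0.30 without replicate 2.

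CEBPD (ENSG00000221869.5; chromosome 8, 47736909 to 47739086, minus strand) encodes a C/EBP factor that is induced during inflammation and late granulocyte maturation. It had 341 and 372 normalised reads in decitabine cells of 6 h, against 409 and 408 in DMSO cells. At 72 h the gene had 487 and 161 in decitabine cells, against 428 in the DMSO library. At 120 h the gene had 614 and 592 in decitabine cells, against 478 and 380 in DMSO cells. Decitabine libraries were below DMSO at 6 h, on both sides of it at 72 h, and above it at 120 h. The 120 h log2 fold change was 0.50, with an interval of -0.47 to 1.47 (limma adjusted p = 0.481). The 72 h value was -0.61 (limma adjusted p = 0.567). With 1 library against 1 it was -1.40 without decitabine 72 h replicate 1 but 0.19 without replicate 2.

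Of the 9 members, CEBPA, CEBPB and CEBPD differed most between the decitabine 72 h replicates, whereas CEBPE, also GC-rich, differed little. Replicate 2 held 0.336 times the value of replicate 1 for CEBPA, 0.367 times for CEBPB and 0.331 times for CEBPD, whose longest transcripts have GC contents of 65.9%, 66.2% and 70.0%. For SPI1 (65.1% GC) the ratio was 0.606, for GFI1 (56.1% GC) it was 0.716, and for RUNX1 (47.1% GC) it was 0.945. CEBPE (62.9% GC), IRF8 (52.0% GC) and KLF4 (55.0% GC) lay above 1, at 1.08, 1.29 and 1.63. Over all tested genes with a known GC content, the median log2 difference between these replicates was 0.37 in the lowest GC quintile and -0.44 in the highest, and the Pearson correlation across 15879 genes, which are not independent replicates, was -0.25. In the other 4 pairs it lay between -0.02 and 0.01. The part of GC content in the 72 h values was not tested.

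**Figure D2:**
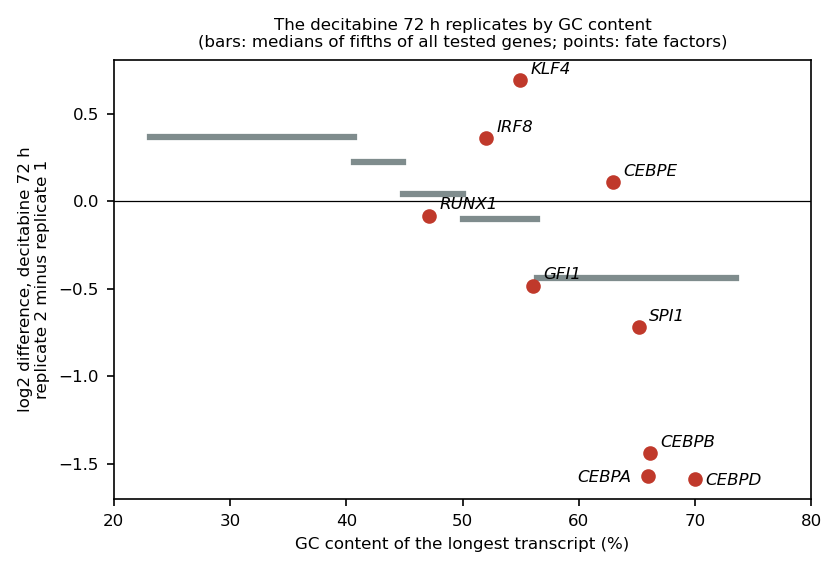
Log2 difference between decitabine 72 h replicate 2 and replicate 1 (vertical axis) against the GC content of the longest transcript in percent (horizontal axis); grey bars are medians of GC quintiles of all tested genes and points are the 9 factors. CEBPA, CEBPB and CEBPD sit well below the highest quintile's median of -0.44, and CEBPE, of 62.9% GC, sits above 0.

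SPI1 (ENSG00000066336.12; chromosome 11, 47354860 to 47378576, minus strand) encodes PU.1, the ETS factor of the whole myeloid branch and a partner of IRF8. It had 443 and 478 normalised reads in decitabine cells of 6 h, against 448 and 502 in DMSO cells. By 72 h it had 569 and 345 in decitabine cells, against 529 in the DMSO library. By 120 h it had 636 and 640 in decitabine cells, against 617 and 594 in DMSO cells. The groups overlapped at 6 h and 72 h. The 120 h log2 fold change was 0.08, with an interval of -0.45 to 0.60, so a change of SPI1 as large as that of IRF8 lay outside the interval. The 72 h value was -0.25 (limma adjusted p = 0.667). With 1 library against 1 it was -0.62 without decitabine 72 h replicate 1 and 0.11 without replicate 2.

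RUNX1 (ENSG00000159216.18; chromosome 21, 34787801 to 36004667, minus strand) encodes the core-binding factor that acts upstream of SPI1 in blood progenitors. It had 664 and 752 normalised reads in decitabine cells of 6 h, against 589 and 570 in DMSO cells. The 72 h libraries held 1192 and 1127 in decitabine cells, against 665 in the DMSO library. The 120 h libraries held 1080 and 927 in decitabine cells, against 760 and 714 in DMSO cells. The decitabine libraries were above the DMSO libraries at each of the 3 times. No difference was called with all libraries: the log2 fold changes were 0.29 at 6 h (interval -0.07 to 0.64), 0.80 at 72 h (interval 0.37 to 1.23, limma adjusted p = 0.0745) and 0.44 at 120 h (interval 0.09 to 0.80, limma adjusted p = 0.0937). The 72 h difference was 0.76 without decitabine 72 h replicate 1 and 0.84 without replicate 2, each 1 library against 1.

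GFI1 (ENSG00000162676.12; chromosome 1, 92474762 to 92486876, minus strand) encodes the zinc-finger repressor of the granulocyte branch. It had 1963 and 2014 normalised reads in decitabine cells of 6 h, against 1707 and 1817 in DMSO cells. At 72 h its level was 2195 and 1572 in decitabine cells, against 2106 in the DMSO library. At 120 h its level was 1985 and 2080 in decitabine cells, against 2020 and 2041 in DMSO cells. The 120 h libraries of both treatments overlapped, and the log2 fold change there was 0.00 with an interval of -0.40 to 0.41. Its 72 h value was -0.18 (limma adjusted p = 0.692). With 1 library against 1 it was -0.42 without decitabine 72 h replicate 1 and 0.06 without replicate 2.

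KLF4 (ENSG00000136826.15; chromosome 9, 107484852 to 107490482, minus strand) encodes a zinc-finger factor that in mice acts downstream of IRF8 in monocyte development. It was the least abundant member, resting on an estimated 19.6 to 132 counts per library. At 6 h it had 16.9 and 29.3 normalised reads in decitabine cells, against 21.3 and 36.2 in DMSO cells. At 72 h the gene had 56.0 and 91.2 in decitabine cells, against 18.7 in the DMSO library. At 120 h the gene had 59.3 and 60.7 in decitabine cells, against 27.2 and 18.6 in DMSO cells. The groups overlapped at 6 h and parted at 72 h and 120 h, with decitabine above DMSO and IRF8 moving the other way. The log2 fold change was 1.88 at 72 h (interval 0.71 to 3.05, limma adjusted p = 0.107) and 1.37 at 120 h (interval 0.42 to 2.33, limma adjusted p = 0.0592), and neither was called. The 72 h difference was 2.23 without decitabine 72 h replicate 1 and 1.53 without replicate 2, each 1 library against 1. When libraries were scaled to equal totals, the 120 h difference of KLF4 was called (log2 1.43, limma adjusted p = 0.0458).

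Over the 9 members, limma called 0 at 6 h, where 0 of the 16152 genes tested were called (0%) and 541 had an unadjusted p under 0.05. For 72 h it called IRF8 only, 1 of 9, against 2.19% of all genes (303 or 1.88% higher and 50 or 0.310% lower). For 120 h it called 2 of 9, IRF8 lower and CEBPE higher, against 15.9% of all genes (1601 or 9.91% higher and 969 or 6.00% lower). After quantile normalisation the all-gene split was 284 higher and 97 lower at 72 h, and 1513 higher and 1465 lower at 120 h, with the member counts as before. Leaving out decitabine 72 h replicate 1 or replicate 2 added calls at 72 h and at 120 h, among the members and among all genes alike. The 5 members added at 120 h were CEBPA, lower, and CEBPB, CEBPD, KLF4 and RUNX1, higher, each at an unchanged fold change. With either decitabine 120 h library left out, IRF8 kept its 120 h call and CEBPE lost it, while fewer of all genes were called.

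**Figure D3:**
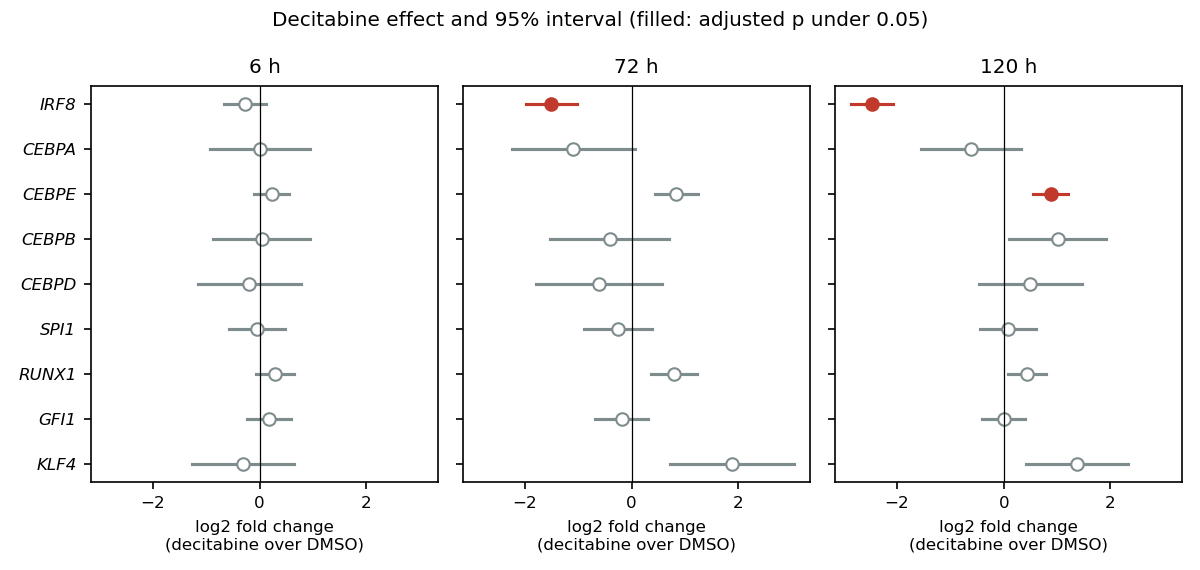
Log2 fold change of decitabine over DMSO (horizontal axis) with its 95% interval from limma for the 9 factors at 6, 72 and 120 h; filled points have an adjusted p under 0.05. IRF8 is the 1 filled point at 72 h (-1.50), and IRF8 (-2.47) and CEBPE (0.89) are filled at 120 h.

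The change with time was tested directly. IRF8 was the 1 member whose decitabine effect at 120 h differed from that at 6 h, against 5.90% of all genes (4.27% higher and 1.63% lower). For the effect at 120 h minus that at 72 h, limma called 0 members (0% of genes, with 1022 at an unadjusted p under 0.05). In decitabine cells of 120 h against decitabine cells of 72 h, 0 members were called, against 0.130% of all genes (0.124% higher and 0.00619% lower). There the log2 difference was -0.86 for IRF8 (interval -1.26 to -0.47, limma adjusted p = 0.122) and 0.00 for CEBPE (interval -0.33 to 0.33). Leaving out decitabine 72 h replicate 1 added calls for this difference of effects and between the decitabine cells, among the members and among all genes alike. In DMSO cells of 120 h against DMSO cells of 6 h, limma called 0 members and 0% of genes, with 865 at an unadjusted p under 0.05, and the member differences ran from -0.29 for KLF4 to 0.35 for SPI1.

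Levels of the members were compared with each other as normalised reads per kb of summed exon length. In decitabine cells of 120 h the order was CEBPE (1664 per kb), GFI1 (616), CEBPA (460), SPI1 (308), CEBPD (277), CEBPB (195), RUNX1 (64.4), IRF8 (35.5) and KLF4 (16.4), with no overlap between neighbours. In DMSO cells of 120 h the order was CEBPE (902 per kb), CEBPA (704), GFI1 (615), SPI1 (293), IRF8 (197), CEBPD (197), CEBPB (96.5), RUNX1 (47.3) and KLF4 (6.26). There the libraries of IRF8 and CEBPD overlapped, while the other neighbours did not. IRF8 thus stood above CEBPB and RUNX1 in DMSO cells and below them in decitabine cells, and GFI1 and CEBPA exchanged places. These levels assume that every annotated exon is used, which lowers the value of RUNX1, with 15574 exon bases.

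The other members of the same families came from lists, whose log2 fold changes at 120 h are given beside the median of all genes, 0.07, while at 6 h no gene of any list was called. Each list count at 120 h stands against 9.91% of all genes called higher and 6.00% called lower, and each at 72 h against 1.88% and 0.310%. These shares are for the fit to all libraries. They were higher without either decitabine 72 h library and lower without any 1 library of 6 h or 120 h. Genes under 10 normalised reads in every DMSO library passed the filter only through decitabine cells, so the filter favoured rises among them. The paralogue, receptor, dendritic cell and reported IRF8-activated lists each held 1 such tested gene. Of 6 tested IRF genes other than IRF8, 3 rose and 0 fell, with a list median of 0.97. IRF2, which competes with activating IRF proteins, averaged 831 ± 9.83 normalised reads in decitabine cells and 362 ± 42.7 in DMSO cells (SD, n = 2 each). IRF1, the interferon-induced activator, averaged 265 ± 10.2 in decitabine cells and 126 ± 2.73 in DMSO cells. IRF7, the inducer of type I interferon, averaged 21.4 ± 6.16 in decitabine cells and 4.27 ± 1.98 in DMSO cells. The log2 fold changes were positive, 1.06 for IRF1 and 2.11 for IRF7, where that of IRF8 was -2.47. With either decitabine 120 h library left out, 1 of the 6 was called, and with either decitabine 6 h or either DMSO 120 h library left out, 2 were, IRF7 losing its call in 8 of the 20 alternatives. IRF4, the closest paralogue of IRF8, did not pass the filter (at most 1.68 normalised reads).

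Of 5 tested C/EBP partners and relatives (CEBPG, DDIT3, BATF, ATF3 and ATF4), none was called by limma with all libraries, and the values nearest to a call were 1.10 for DDIT3 and -0.48 for ATF4 (limma adjusted p = 0.0634 and 0.0705). DDIT3 was called in 6 of the 20 alternatives, among them the replicate block (log2 1.10, limma adjusted p = 0.0446), and ATF4 in 5, and both were called when either decitabine 72 h library was left out. Of 14 tested GFI, RUNX, KLF and ETS paralogues, 5 rose and 0 fell (median 0.64). GFI1B, the paralogue of GFI1 used by erythroid cells and megakaryocytes, averaged 105 ± 5.31 in decitabine cells and 7.86 ± 3.32 in DMSO cells of 120 h, and was also called at 72 h (39.0 ± 4.72 in decitabine cells, 3.11 in the DMSO library). GFI1 itself was 0.00 at 120 h on the log2 scale, where GFI1B was 3.63. On the same scale KLF10 rose by 1.17, KLF6 by 1.19 and the ETS factor ERG by 2.24. Fewer of the 14 were called with either decitabine 120 h library or DMSO 120 h replicate 2 left out. More were called with either decitabine 72 h library left out. The calls among all genes moved in the same way.

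Of 22 tested other fate factors, 7 rose and 1 fell at 120 h (median 0.16). Among the 22, 4 were under 10 normalised reads in every DMSO library and passed the filter only through decitabine cells. The filter favoured rises among these 4, and the counts and median include them. The median was 0.43 without decitabine 120 h replicate 2 and 0.24 without DMSO 120 h replicate 1. More fell when either decitabine 72 h library was left out, as among all genes. MYC, which promotes growth of progenitors, was the 1 that fell with all libraries, to 3239 ± 290 normalised reads in decitabine cells, against 13642 ± 768 in DMSO cells (log2 -2.08, limma adjusted p = 0.000342). GATA2, a progenitor, mast cell and basophil factor, averaged 895 ± 2.72 in decitabine cells and 242 ± 14.5 in DMSO cells. EGR2, a monocyte-branch factor, averaged 27.6 ± 3.29 in decitabine cells and 0.278 ± 0.393 in DMSO cells. GATA1, the erythroid, megakaryocyte and eosinophil factor, had 80.1 and 81.5 in decitabine cells and was listed at 0 in both DMSO libraries of 120 h. At 72 h MYC was called lower, and GATA1 and GATA2 higher, GATA1 losing that call in 8 of the 20 alternatives, the replicate block among them (log2 5.32, limma adjusted p = 0.0513).

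Primary granule genes, which the early factors C/EBP-alpha, PU.1 and RUNX1 control, gave 4 higher and 0 lower of 11 at 120 h (median 0.82). More were called in both directions when either decitabine 72 h library was left out, as among all genes. BPI, a bactericidal protein, averaged 4211 ± 216 normalised reads in decitabine cells and 862 ± 34.2 in DMSO cells. On the log2 scale LYZ, lysozyme, rose by 1.26, and the ribonucleases RNASE2 and RNASE3, which eosinophils also store, rose by 2.38 and 2.67. MPO was -0.41 and ELANE -1.13, neither called and both singled out after their values were seen. Secondary and tertiary granule genes, many of them C/EBP-epsilon targets, gave 8 higher and 1 lower of 14 (median 1.86). More of them were called lower when either decitabine 72 h library was left out. Among the 14, 3 were under 10 normalised reads in every DMSO library and passed the filter only through decitabine cells. The filter favoured rises among these 3. HP, haptoglobin, averaged 4948 ± 674 in decitabine cells and 525 ± 8.49 in DMSO cells, and MMP9, gelatinase B, averaged 225 ± 2.82 in decitabine cells and 1.61 ± 2.28 in DMSO cells. MMP8, collagenase, was the 1 that fell (log2 -2.50) and LTF, lactoferrin, was -1.41 and not called; both were singled out after their values were seen, and MMP8 lost its call with either decitabine 120 h library or DMSO 120 h replicate 1 left out. TCN1, a vitamin B12 carrier, and PADI4, which citrullinates histones, rose by 3.31 and 3.08. HP and TCN1 were also called higher at 72 h, TCN1 losing that call in 4 of the 20 alternatives.

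Monocyte and macrophage genes gave 10 higher and 3 lower of 15 at 120 h (median 2.16). MPEG1, a pore-forming macrophage protein, averaged 627 ± 26.1 normalised reads in decitabine cells and 69.0 ± 10.6 in DMSO cells. CLEC7A, the beta-glucan receptor, averaged 320 ± 39.4 in decitabine cells and 28.2 ± 1.85 in DMSO cells. CCR2, the chemokine receptor of classical monocytes, fell to 25.8 ± 4.05 in decitabine cells, against 181 ± 17.6 in DMSO cells, and MS4A6A fell by 2.37 and MS4A7 by 1.50 on the log2 scale, the last named after its value was seen. Most of the list thus rose while IRF8 fell, and CCR2 and MS4A6A moved in the direction of IRF8, at 72 h as well. FCN1, ficolin-1, rose by 2.16 at 120 h, and CLEC7A, CD68 and LGALS3 were called higher at 72 h. LGALS3 had 469 and 1243 normalised reads in the decitabine 72 h libraries, against 98.0 in the DMSO library, and lost that call in 6 of the 20 alternatives, as CCR2 did in 4. With either decitabine 120 h library left out, the list gave 6 higher and 2 lower.

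Surface receptors under PU.1, C/EBP and RUNX1 control gave 12 higher and 0 lower of 19 at 120 h (median 2.21). CSF2RB, the shared beta chain of the GM-CSF, IL-3 and IL-5 receptors, averaged 1348 ± 15.5 normalised reads in decitabine cells and 216 ± 11.2 in DMSO cells. FPR2, a formyl peptide receptor, was 2.78 and ITGAX, an integrin chain, was 3.68 on the log2 scale. FCGR2A, an Fc receptor, was 1.96 at 120 h and was called higher at 72 h, a call lost in 4 of the 20 alternatives. At 72 h this list gave 1 higher. More were called without either decitabine 72 h library and none without either decitabine 120 h library. The calls among all genes likewise rose and fell there. FCGR3B was 3.15 at 120 h, but it is nearly identical to FCGR3A, and how reads were shared between them is uncertain. Markers of eosinophils moved with these lists: the sum of EPX, PRG2, CLC and RNASE2, all 4 detected, was 121095 and 131507 in decitabine cells of 120 h, against 14434 and 15704 in DMSO cells, and their part in the results was not tested. The 5 lymphoid markers summed to 160 and 124 in decitabine cells, against 2.58 and 4.25 in DMSO cells, nearly all of it CD3D, with 3 of the 5 under 10 everywhere. The 7 epithelial, stromal and endothelial markers summed to 1825 and 1895 in decitabine cells and 461 and 521 in DMSO cells, nearly all of it PECAM1, which myeloid cells also express.

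Reported targets of IRF8 were then read beside IRF8 itself. Of 13 tested genes that IRF8 is reported to activate, 6 rose and 0 fell at 120 h, with a median of 0.58. CYBB, the membrane subunit of the phagocyte oxidase, averaged 18523 ± 114 normalised reads in decitabine cells and 4968 ± 106 in DMSO cells (log2 1.90, limma adjusted p = 0.000145), and CTSS and TLR4 were 1.67 and 1.62 on the log2 scale. CYBB was also called at 72 h, a call lost in 6 of the 20 alternatives. The list median turned to -0.01 without decitabine 120 h replicate 1 and was 1.48 without replicate 2, with 5 genes called higher in either case. It was 1.58 without DMSO 120 h replicate 1 and 0.27 without replicate 2. Of 3 tested genes that IRF8 is reported to repress, ASAH1, acid ceramidase, rose (log2 1.11, limma adjusted p = 0.0244), a call lost with any of the 4 libraries of 120 h left out, and BCL2 and BCL2L1 were not called.

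Dendritic cell and MHC class II genes, which depend on IRF8 in that lineage, were mostly near 0: 5 of 16 passed the filter, and HLA-DRA reached at most 2.14 normalised reads in any library. CD74, the invariant chain, fell to 121 ± 9.23 in decitabine cells of 120 h, against 243 ± 31.0 in DMSO cells (log2 -0.99, limma adjusted p = 0.0324), and lost its call in 8 of the 20 alternatives, those without any 1 of the 120 h libraries or of the DMSO 6 h libraries among them. LAMP3 averaged 132 ± 5.58 in decitabine cells and 17.8 ± 0.149 in DMSO cells. CLEC9A had 17.4 and 23.1 in decitabine cells, against 0 and 1.47 in DMSO cells. It was at most 2.13 in any DMSO library and passed the filter only through decitabine cells, which favoured a rise. Its call was lost without either decitabine 120 h library or DMSO 120 h replicate 1. CIITA, the master activator of these genes, was -1.72 and not called (limma adjusted p = 0.0746), and was singled out after its value was seen.

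**Figure D4:**
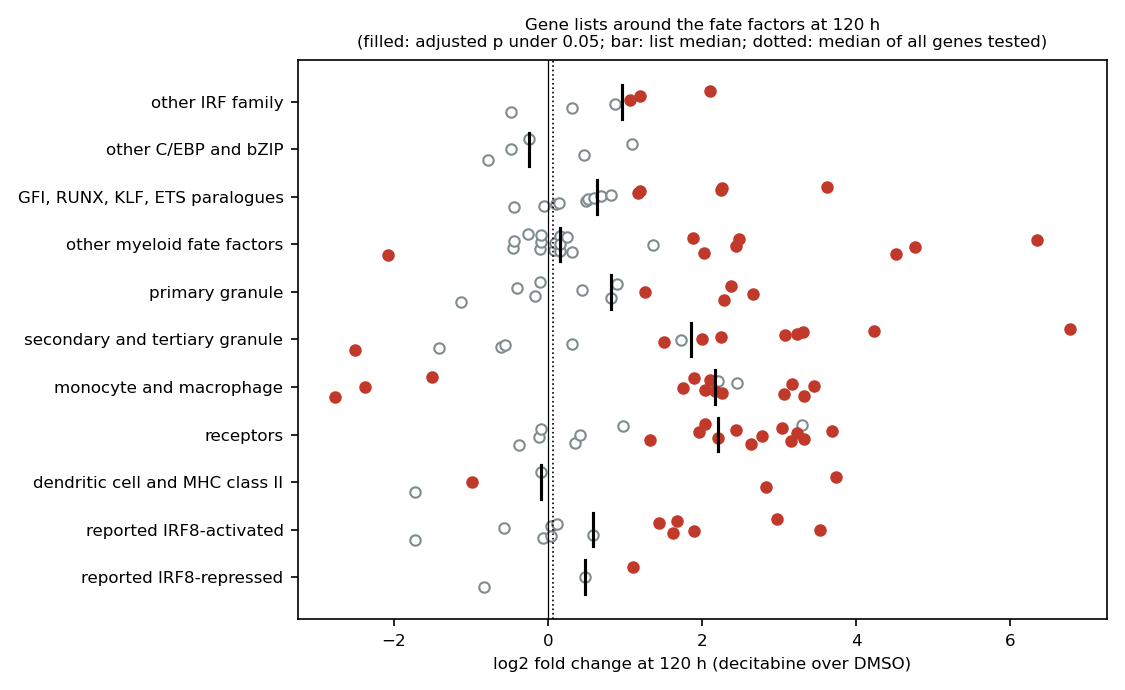
Log2 fold change of decitabine over DMSO at 120 h (horizontal axis) for the tested genes of the 11 lists (rows); filled points have an adjusted p under 0.05, bars are list medians and the dotted line is the median of all genes tested, 0.07. Monocyte and receptor lists have medians of 2.16 and 2.21, whereas other C/EBP and bZIP genes have a median of -0.24.

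The genes most like IRF8 over the 11 libraries, by Pearson correlation of log2(value + 1) among 8833 genes with a mean of at least 100, were LRPPRC (0.99), AMER1 (0.99), MRPS15 (0.99), AGPAT5 (0.99) and BOP1 (0.98). LRPPRC averaged 6129 normalised reads in decitabine cells of 120 h, against 12136 in DMSO cells. Among the genes most like CEBPE were HTATIP2 (0.99), ZNF93 (0.99), PTX3 (0.99) and PNMA5 (0.98), and HTATIP2 averaged 294 in decitabine cells of 120 h, against 98.4 in DMSO cells. For CEBPA they were ATAD3B (0.99), TUFM (0.98), SLC19A1 (0.98), FUT4 (0.98) and ATOX1 (0.98). The libraries share treatment and time, so a gene that follows decitabine scores high, and CEBPA was lowest in decitabine 72 h replicate 2.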

How the data were processed

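RNA of HL-60 cells was depleted of ribosomal RNA and sequenced as single-end reads with the ScriptSeq v2 kit, per the labels' protocols. The submitters' processing notes list STAR, featureCounts, Salmon 1.2.1, limma, DESeq2 and the hg38 build without saying what each did. The deposited values are a signal that is never negative, normalised by the authors, and are called normalised reads here. In each library 55.2 to 58.6% of low values were whole multiples (within 0.01) of 1 step. The other low values were not, so the table as a whole could not be turned back into whole reads, and no count model was used. Depth was estimated from that step, 0.407 to 0.961 units per count. Normalised totals were 12815698 to 15959030. The heading has 13 names, per the file headers, over 13 fields of which the leading 2 hold identifier and symbol. Names were read from the symbol field, which leaves DMSO 72 h replicate 2 without values, and it was not analysed here. In that reading the mean log2 distance was 0.299 within groups and 0.439 between them, against 0.429 and 0.426 in the other reading.

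The 16152 genes that reached 10 in 2 or more libraries were fitted as log2(value + 1) with limma 3.58.1 in R 4.3.3 (lmFit, eBayes with a trend), 1 mean per group, 5 residual and 8.42 total degrees of freedom. The lone DMSO library of 72 h was taken to vary as the other groups do. Tests were two-sided, Benjamini-Hochberg adjusted over all tested genes, and called under 0.05. Fold changes on this scale understate those of low genes. The code was tested on simulated data. Coordinates, exon lengths and GC content came from GENCODE 29 (GRCh38), and GC content was found for 98.3% of tested genes.

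Members and lists were chosen with earlier results of these data known. Named from each list were up to 4 genes with the smallest p among those called at 120 h (otherwise 2) and those called at 72 h. For IRF8, CEBPE and CEBPA the 5 most correlated genes were named. IRF4, HLA-DRA, BCL2, BCL2L1, MPO, ELANE, CIITA, MMP8, LTF and MS4A7 were named outside these rules, after their values were seen. A few items that these rules would name are not reported here. Alternatives changed the pseudocount, filter, scaling, trend, weights, block, reference and libraries. Same-numbered libraries deviated together in 2 of 10 group pairs (correlations -0.08 to 0.12), so the numbers were not taken to pair them.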

Additional observations from a re-analysis of the deposited data

Results flagged for a closer look

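The decitabine effect on IRF8 differed between times by a test of the difference itself. It was 2.20 lower on the log2 scale at 120 h than at 6 h (difference -2.20, SE 0.244, 95% interval -2.76 to -1.64, limma adjusted p = 0.00305). The values behind it are 176 and 191 normalised reads in decitabine cells of 120 h, against 1030 and 1008 in DMSO cells, and 809 and 914 in decitabine cells of 6 h, against 1028 and 1044 in DMSO cells. The cells of 6 h had received 1 of the 3 additions of decitabine, so time and number of additions cannot be told apart. The difference was called under every alternative that was run, at -2.34 to -2.11.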

How the results depend on the processing

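IRF8 kept its call at 120 h in all 20 alternatives, at log2 fold changes of -2.58 to -2.41. Of 1215 gene-level values recomputed under alternatives for the members, 1115 kept their direction and side of the threshold, 42 stayed uncalled but changed sign, 55 gained a call and 3 lost one, and no called value changed sign. The losses were IRF8 at 72 h with the 72 h libraries alone and CEBPE at 120 h without either decitabine 120 h library. At 72 h, 1 member was called, against 2 with a pseudocount of 5, 0 with the 72 h libraries alone and 5 with all DMSO libraries as the control. Of the 16152 genes tested, 1730 higher and 1187 lower were called at 72 h with all DMSO libraries as the control. At 120 h, 2 members were called, against 6 with sample weights and 5 with the 120 h libraries alone. All-gene calls there were 2709 higher and 2322 lower with sample weights, and 2328 higher and 1924 lower with the 120 h libraries alone. For the effect at 120 h minus that at 6 h, 1 member was called, against 3 with sample weights (1721 genes higher and 1300 lower). Leaving out 1 library at a time gave 0 members at 6 h, 1 to 9 at 72 h, 1 to 7 at 120 h, 1 to 5 for the effect at 120 h minus 6 h, 0 to 5 for that at 120 h minus 72 h, 0 to 6 between the decitabine cells and 0 for DMSO over time. The highest of these came without decitabine 72 h replicate 1, and at 120 h and for 120 h minus 6 h also without replicate 2. In those fits more of all genes were called as well, so the higher member counts do not set the members apart. Such fits leave 1 library in each 72 h group. The cause of the added calls was not tested.

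With the replicate block, the counts of members called stayed at 0 at 6 h, 1 at 72 h and 2 at 120 h, and no member's call changed, though among the named list genes DDIT3 gained its call at 120 h and GATA1 lost its call at 72 h, while the genes called at 72 h dropped to 194 higher and 21 lower. A GC correction, chosen after seeing the data, added CEBPB at 120 h (log2 1.14, limma adjusted p = 0.0206). Without DMSO 72 h replicate 1 no value at 72 h could be had. With pairs and a single DMSO library at 72 h, intervals are wide: that of CEBPA at 120 h spans -1.55 to 0.33.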

Other observations

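Antisense genes overlap CEBPA (AC008738.3 and AC008738.5) and CEBPB (CEBPB-AS1). The sources used here do not state whether strand was used in counting. CEBPA-DT, a divergent neighbour of CEBPA, is not listed under that name among the genes that overlap it. CEBPA-DT held 112 and 96.2 normalised reads in decitabine cells of 120 h, against 113 and 131 in DMSO cells, and 92.0 and 189 in decitabine cells of 72 h, against 144 in the DMSO library. CEBPB-AS1 held 27.0 and 34.6 in decitabine cells of 72 h, against 8.47 in the DMSO library, and 14.2 and 10.7 in decitabine cells of 120 h, against 11.98 and 11.3 in DMSO cells. At 72 h decitabine replicate 2 was thus the higher of the pair for CEBPA-DT, while it was the lower for CEBPA (494 against 1469).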
